A study of Oryctolagus cuniculus with 35 samples.

Results

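The genes described here encode the ligands, receptors, inhibitors and signal carriers of the Wnt, BMP, TGF-beta and Notch pathways, together with the fibroblast growth factors (FGFs), their receptors and ectodysplasin A (EDA). They were chosen by symbol: WNT, FZD, SFRP, DKK, AXIN, ACVR, INHB, SMAD, GREM, NOTCH and JAG genes, BMP, FGF and DLL genes with their receptors, LRP5, LRP6, the TGF-beta ligands and receptors, and EDA. Of 23669 genes in the deposited tables, 16304 have a symbol. Of these, 100 matched, and 72 of the 100 reached a value of at least 10 in some library. LRP5, TGFB1, NOTCH1, JAG2, AXIN1 and SMAD6 are not among the matching symbols, so the families are not covered in full. The other 28 were left out. Of those, 19 were listed at 0 in all 35 libraries, among them FGFR1, NOTCH3, DLL1 and BMP1, and 9 had low values only. FGF12, just inside the limit, had a highest value of 10.9, and ACVR1C, just outside it, one of 8.85. BMP2K, a kinase, and FGFR1OP2 matched by name and are neither ligands nor receptors of these pathways.

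These pathways pass signals between neighbouring cells during lung development and repair. Wnt ligands act through Frizzled (FZD) receptors and LRP co-receptors, and secreted DKK and SFRP proteins hold them back. TGF-beta, activin and BMP ligands bind paired receptor kinases that act on SMAD proteins, Notch receptors are switched on by Delta-like and Jagged ligands on the next cell, and FGFs bind receptor tyrosine kinases, often passing from the mesenchyme to the epithelium. EDA is a ligand of the tumour necrosis factor family known for the development of skin appendages. The roles given for single genes are those known in human and mouse.

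The study holds 35 RNA-seq libraries, each from the lung of 1 New Zealand rabbit, with 7 rabbits in each of 5 groups. Pneumococci and adverse mechanical ventilation were given to 4 of the groups, and treatment followed 4 h after the bacteria. It was intramuscular ceftaroline (20 mg/kg, a cephalosporin antibiotic) plus MSC, ceftaroline alone, MSC alone, or saline (the NaCl group), where MSC are intravenous stromal cells from human umbilical cord at 3000000 cells per kg. Healthy rabbits were labelled as healthy and received saline. Lung was sampled 24 h after the bacteria, or sooner where a rabbit died, so that time of sampling can differ within a group. The tables list rabbit genes, and any reads of the infused human cells cannot be told apart from rabbit reads here.

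The libraries held 7567008 to 33209729 recovered reads (median 11137017). The titles of 2 MSC, 3 NaCl and 5 healthy libraries carry an ending, PD or PG, whose meaning the labels do not give, and no ceftaroline library does. The MSC and NaCl endings are all PG, while of the healthy ones 4 are PD and 1 is PG. All healthy libraries and NaCl replicate 2 carry a further mark (S00) in their description, whose meaning the labels do not give either. In NaCl against healthy lungs, disease and this mark thus nearly coincide and cannot be told apart. Leaving out NaCl replicate 2 makes them coincide fully. Of 6 defining markers of lung, SFTPB, AGER and PECAM1 could be tested, while the surfactant gene SFTPC and the club cell gene SCGB1A1 were listed at 0 throughout. A gene listed at 0 in these tables can be a failed estimate. Levels below are normalised reads, that is, reads per gene over size factors common to the 35 libraries, which the authors' tables, normalised separately, do not share. They are given as the lowest, median and highest of 7 libraries. Fold changes are limma estimates within the authors' table for the comparison, on log2(normalised value + 1), with their standard error (SE) and a two-sided Benjamini-Hochberg adjusted p over all genes tested, past the threshold when under 0.05.

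The first comparison asks what pneumonia with adverse ventilation did to the lung, by setting NaCl against healthy rabbits. Of the 63 members that could be tested, 40 passed the threshold (63.5%), where 60.6% of all 9545 genes did, so that the share was close to that of the tables as a whole. The directions were uneven: 27 members fell (42.9%, with 30.9% of all genes) and 13 rose (20.6%, with 29.7% of all genes). The median log2 fold change was -0.48 over the members and 0.00 over all genes tested. In 20 members every NaCl library lay below every healthy library (15.2% of all genes did so), and in 5 every one lay above (14.7% of all genes). The falls were spread over the roles. They took in 5 of 9 Wnt ligands tested, 3 of 8 Wnt receptors, 2 of 4 Wnt inhibitors, AXIN2, 3 of 5 TGF-beta ligands and receptors, 1 of 6 activin genes, 3 of 5 BMP ligands, 2 of 2 BMP receptors, 4 of 7 FGF ligands, 2 of 2 FGF receptors and EDA. The rises took in 2 of 2 Notch receptors tested, 2 of 2 Notch ligands, 2 of 6 SMADs, 2 of 6 activin genes, 2 of 7 FGF ligands, 1 of 4 Wnt inhibitors, 1 of 5 TGF-beta genes and BMP2K. These counts hold only the members that could be tested.

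**Figure D1:**
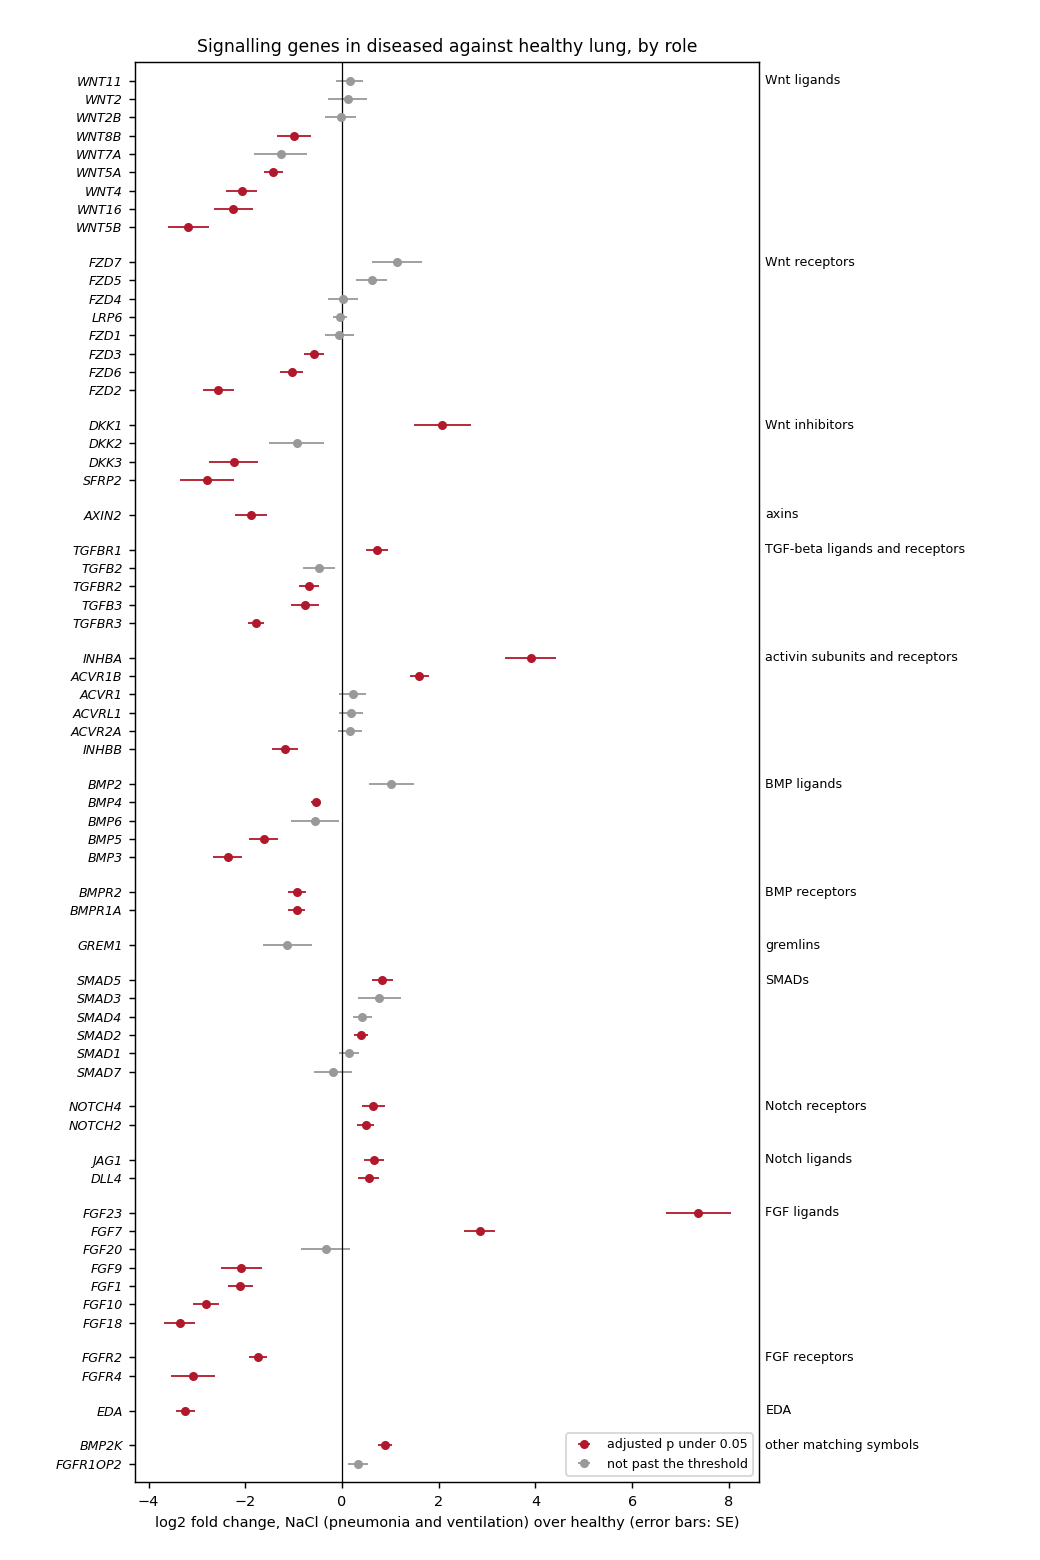
Log2 fold change of the 63 tested members in NaCl over healthy lungs (x axis, points with bars of 1 SE, 7 libraries a group), grouped by role, with red points past an adjusted p of 0.05. FGF23 (7.37) and INHBA (3.90) lie farthest to the right and FGF18 (-3.36) and EDA (-3.24) farthest to the left.

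EDA gave the lowest adjusted p of all the members. It had 10, 15.3 and 20.5 normalised reads in NaCl lungs (lowest, median, highest), against 134, 159 and 174 in healthy lungs. The groups lay far apart, and each was narrow. The log2 fold change was -3.24 (SE 0.19, adjusted p = 7.9e-09 by limma). EDARADD, the adaptor of the EDA receptor, fell as well (log2 fold change -2.15, SE 0.32, adjusted p = 3.6e-05 by limma). TRAF6, which passes the signal on, stood at 0.40 (adjusted p = 0.22 by limma). EDAR, the receptor itself, was too low to test in this comparison.

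Among Wnt ligands, WNT5B, a ligand mostly of the beta-catenin-independent branch, had 6.57, 17.6 and 43.6 normalised reads in NaCl lungs and 91, 163 and 523 in healthy lungs. No NaCl library reached the lowest healthy one, and the log2 fold change was -3.18 (SE 0.42, adjusted p = 1.0e-05 by limma). WNT16 had 4.84, 20.1 and 51.3 normalised reads in NaCl lungs, against 57.3, 88.5 and 166 in healthy lungs, again without overlap, and fell by 2.25 (SE 0.40). WNT4, WNT5A and WNT8B fell, with log2 fold changes of -2.07, -1.42 and -0.99, but WNT8B missed the threshold without healthy replicate 1 (adjusted p = 0.0533 by limma) or 7 (0.0529). WNT2, WNT2B, WNT7A and WNT11 did not pass the threshold, with log2 fold changes of 0.12, -0.03, -1.27 and 0.16. WNT1 was too low to test, with 0, 14.7 and 29.1 normalised reads in NaCl lungs and 0, 1.03 and 2.12 in healthy lungs.

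FZD2, a Frizzled receptor, had the lowest p of the Wnt receptors. Its levels were 12.9, 34.7 and 78.8 normalised reads in NaCl lungs and 141, 214 and 259 in healthy lungs. The groups did not overlap, with a log2 estimate of -2.56 (SE 0.32, adjusted p = 7.8e-06 by limma). FZD6 (-1.04) and FZD3 (-0.58) fell, and the other 5 receptors tested did not pass, among them the co-receptor LRP6 at -0.04 (SE 0.14). FZD3 missed the threshold when healthy replicate 4 or 6, or NaCl replicate 2 or 3, was left out (adjusted p of 0.0507 to 0.0568 by limma). AXIN2, a scaffold of the beta-catenin destruction complex and itself a widely used Wnt target gene, had 14.2, 37.2 and 68.9 normalised reads in NaCl lungs, against 94.2, 111 and 234 in healthy lungs. Every NaCl library was below every healthy one, and AXIN2 fell by 1.89 (SE 0.33, adjusted p = 1.4e-04 by limma).

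The secreted Wnt inhibitors moved in both directions. DKK1, which blocks LRP co-receptors, had 21.9, 119 and 380 normalised reads in NaCl lungs and 9.42, 16.5 and 47.2 in healthy lungs. It rose by 2.07 (SE 0.59, adjusted p = 0.0065 by limma), with overlap, since the lowest NaCl libraries lay within the healthy range. SFRP2, which binds Wnt ligands, had 0, 14.1 and 28 normalised reads in NaCl lungs, against 42.2, 70.2 and 210 in healthy lungs, and fell by 2.79 without overlap (SE 0.56). DKK3 fell by 2.24 (SE 0.51), and DKK2 did not pass, at -0.94 (SE 0.56).

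Of the TGF-beta genes, TGFBR3, the co-receptor betaglycan, had the lowest p. Its level was 751, 926 and 1407 normalised reads in NaCl lungs and 2536, 3432 and 4410 in healthy lungs. These ranges stood apart, and the log2 fold change was -1.78 (SE 0.16, adjusted p = 2.5e-07 by limma). TGFBR2, the ligand-binding kinase receptor, fell by 0.68 (SE 0.21), and TGFBR1, its signalling partner, rose by 0.72 (SE 0.23). TGFB3 fell by 0.77 (SE 0.29), while TGFB2 did not pass at -0.48 (SE 0.33). The call of TGFB3 was lost when any of healthy replicates 1, 2, 3, 5 and 6 or of NaCl replicates 1, 2, 3 and 4 was left out (adjusted p of 0.0501 to 0.0657 by limma), and in libraries with a title ending alone TGFB3 stood at -0.04 (adjusted p = 0.911).

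Activin genes held some of the clearest rises. INHBA, the subunit of activin A, had 74.2, 103 and 351 normalised reads in NaCl lungs and 0, 11.2 and 15.5 in healthy lungs. Every NaCl library was above every healthy one, and the log2 fold change was 3.90 (SE 0.53, adjusted p = 1.5e-05 by limma). ACVR1B, a type I activin receptor, had 196, 256 and 295 normalised reads in NaCl lungs, against 49.7, 88.9 and 110 in healthy lungs, and rose by 1.60 without overlap (SE 0.20). INHBB, the subunit of activin B, fell by 1.18 (SE 0.27). ACVR1, ACVR2A and ACVRL1 did not pass, with log2 fold changes of 0.22, 0.17 and 0.18.

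BMP ligands and receptors were lower in NaCl lungs wherever they passed by limma over all libraries. BMP3, an atypical BMP that opposes other BMPs, had 21.9, 45.9 and 79.2 normalised reads in NaCl lungs and 144, 245 and 380 in healthy lungs. It fell by 2.36 without overlap (SE 0.30, adjusted p = 6.7e-06 by limma). BMP5 (-1.62) and BMP4 (-0.54) fell, and BMP2 and BMP6 did not pass, at 1.02 and -0.56. BMP2 is listed as higher in the authors' deposited table (1.487, adjusted p = 0.004875). It also rose by limma in libraries with a title ending alone (1.61, adjusted p = 0.029). BMP6 fell by limma in those without one (-1.28, adjusted p = 0.0176). BMPR2, the type II BMP receptor, had 303, 428 and 646 normalised reads in NaCl lungs, against 667, 814 and 948 in healthy lungs, and fell by 0.93 (SE 0.18). BMPR1A, a type I receptor, fell by 0.94 (SE 0.18), and neither receptor overlapped between the groups. GREM1, a secreted BMP inhibitor, did not pass (log2 fold change -1.13, adjusted p = 0.0681 by limma), but did so in edgeR (-1.85, adjusted p = 0.00938) and DESeq2 (-1.83, adjusted p = 0.00149). It also passed by limma without healthy replicate 3 (-1.49, adjusted p = 0.00934) or 7 (-1.33, adjusted p = 0.0406).

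SMAD5, a SMAD of the BMP branch, had 52.5, 77.7 and 128 normalised reads in NaCl lungs and 35.6, 47.2 and 58.8 in healthy lungs. The ranges overlapped, and SMAD5 rose by 0.83 (SE 0.22, adjusted p = 0.00374 by limma). SMAD2, of the TGF-beta branch, rose by 0.39 (SE 0.14), a call lost without healthy replicate 2 (adjusted p = 0.0501 by limma) or 4 (0.0529), while SMAD1, SMAD3, SMAD4 and the inhibitory SMAD7 did not pass.

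The 4 Notch receptors and ligands tested rose by less, and none of them passed in the libraries with a title ending alone. NOTCH4, an endothelial Notch receptor, had 1764, 4266 and 6817 normalised reads in NaCl lungs and 1985, 2387 and 2768 in healthy lungs. The NaCl libraries were widely spread and 1 lay below the healthy range, with a log2 estimate of 0.65 (SE 0.23, adjusted p = 0.0232 by limma). JAG1, a Notch ligand, had 785, 1583 and 1971 normalised reads in NaCl lungs, against 700, 950 and 1192 in healthy lungs, and rose by 0.66 (SE 0.20). The ranges of JAG1 overlapped as well. DLL4, another Notch ligand, and NOTCH2 rose by 0.55 and 0.49. DLL4 missed the threshold when any of healthy replicates 1, 2, 3, 4 and 7 or of NaCl replicates 3, 4, 5 and 6 was left out (adjusted p of 0.0555 to 0.0821 by limma), and NOTCH2 when any of healthy replicates 5 and 7 or of NaCl replicates 1 to 4 was (0.0547 to 0.0672).

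FGF ligands held both ends of the range. FGF23, a hormone known for phosphate control and made mainly in bone, had 365, 2349 and 9386 normalised reads in NaCl lungs and 3.09, 12.7 and 51.8 in healthy lungs. It rose by 7.37 (SE 0.67, adjusted p = 3.3e-07 by limma), with every NaCl library above every healthy one. FGF7, also called keratinocyte growth factor and made by mesenchymal cells, had 272, 582 and 854 normalised reads in NaCl lungs, against 40.8, 61 and 153 in healthy lungs, and rose by 2.85 without overlap (SE 0.32).

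FGF18, known for a part in the building of alveoli, had 10, 29.4 and 83.6 normalised reads in NaCl lungs and 236, 314 and 354 in healthy lungs. It fell by 3.36 (SE 0.33, adjusted p = 6.7e-07 by limma) with a wide gap between the groups. FGF10, a mesenchymal ligand that directs branching of the airways, had 45.1, 88.1 and 189 normalised reads in NaCl lungs, against 433, 632 and 855 in healthy lungs, and fell by 2.81 (SE 0.27), again without overlap. FGF1 (-2.10) and FGF9 (-2.08) fell, and FGF20 did not pass. Of the receptors, FGFR4 had 60.1, 177 and 606 normalised reads in NaCl lungs, against 1166, 1517 and 2021 in healthy lungs, and fell by 3.08 (SE 0.45). FGFR2, whose epithelial form binds FGF7 and FGF10, fell by 1.74 (SE 0.19) with 313, 568 and 870 normalised reads in NaCl lungs and 1546, 1887 and 2135 in healthy lungs. Neither receptor overlapped between the groups. FGF7 was higher, and both FGF10 and FGFR2 lower, in the same NaCl libraries. BMP2K rose by 0.89 (SE 0.15).

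**Figure D2:**
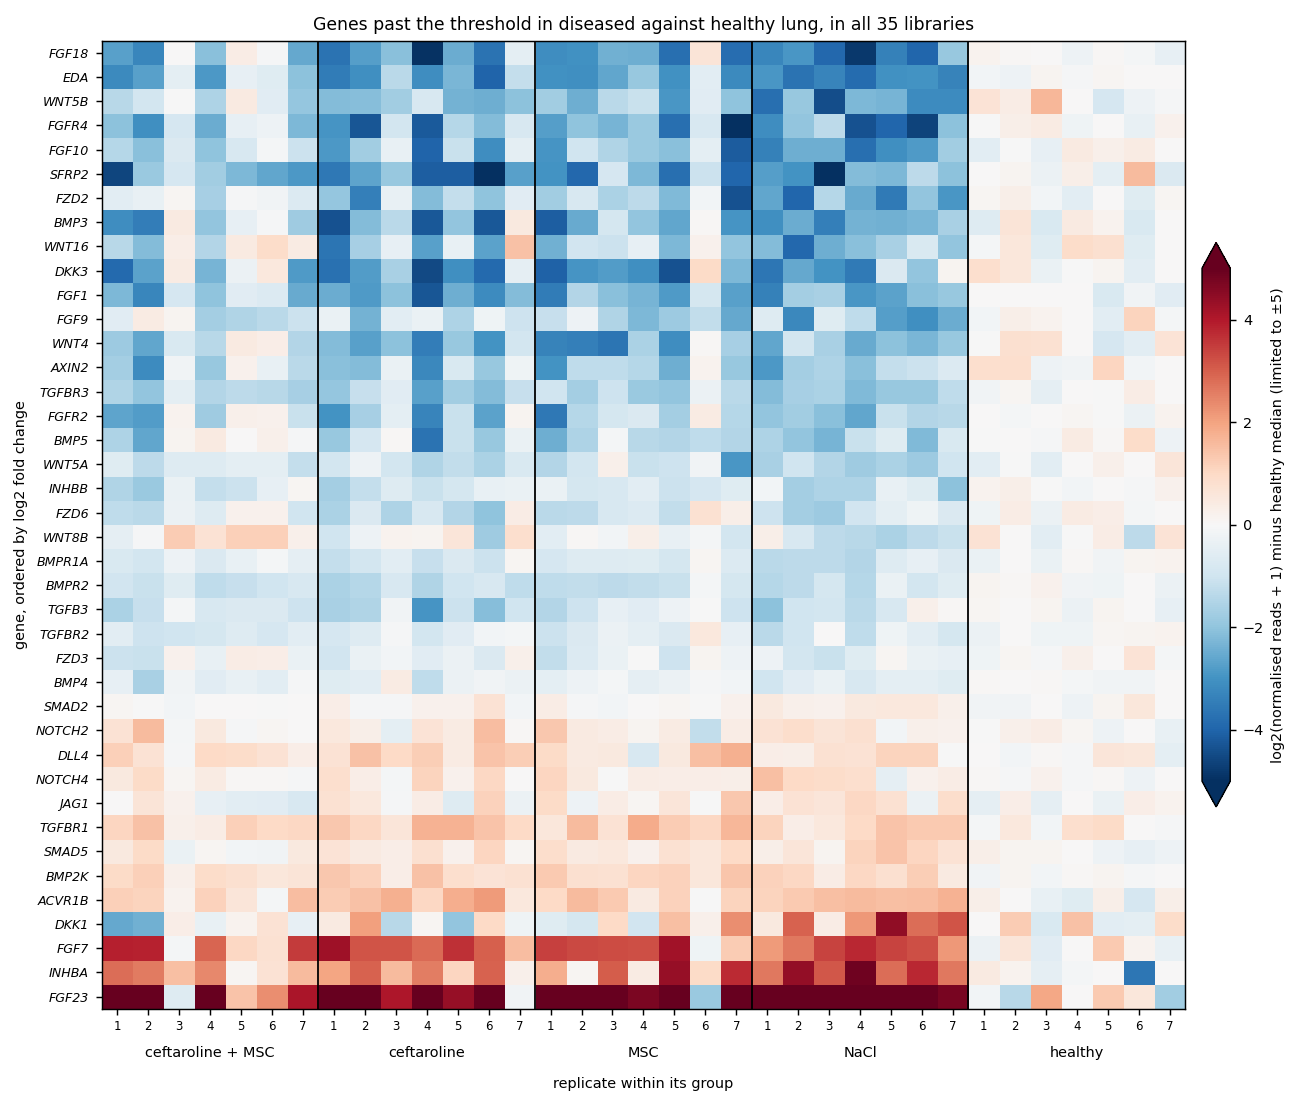
The 40 members past the threshold in NaCl against healthy lungs (rows, ordered by fold change) in all 35 libraries (columns, by group and replicate), coloured by log2(normalised reads + 1) minus the healthy median and limited to 5 either way. Ceftaroline plus MSC replicates 3, 5 and 6, ceftaroline replicate 7 and MSC replicate 6 are paler than the other treated libraries for EDA, FGF18, FGF23 and FGF7.

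Other genes of these pathways were counted from lists drawn up with earlier results known, to be read against the 29.7% of all genes that rose and the 30.9% that fell. In NaCl against healthy lungs, 10 of 20 further Wnt genes fell and 4 rose. Falls took in the Wnt-modifying enzyme PORCN (-1.77), the secreted inhibitor WIF1 (-2.21) and the receptor ROR1 (-2.73). RSPO3, which strengthens Wnt signals, rose (1.60), while RSPO2 of the same family fell (-1.11). MYC rose (2.17). Of 21 TGF-beta and BMP genes, 6 rose and 4 fell, among them the co-repressors TGIF1 (2.20) and SKIL (1.72), which rose, and BMPER, a BMP modulator (-2.74), which fell. Of 17 Notch genes, 4 rose and 8 fell, and RBPJ, the DNA-binding partner of Notch, rose by 0.87. Of the 4 HES and HEY transcription repressors tested, HES2 (-3.30) and HEYL (-2.16) fell, and HES1 (0.34, adjusted p = 0.187 by limma) and HEY1 (0.07, adjusted p = 0.793) did not pass. Of 13 FGF genes, 7 rose and 4 fell. SPRY, SPRED and DUSP proteins restrain the kinase cascade below FGF and other growth factor receptors. Of the 8 tested, SPRED3 (3.87), DUSP5 (3.19), SPRY4 (2.83), DUSP6 (1.55) and SPRED1 (0.78) rose, SPRED2 fell (-0.34), and SPRY1 (0.70, adjusted p = 0.112 by limma) and SPRY2 (-0.18, adjusted p = 0.697) did not pass. FGFBP1 (6.80), a carrier of FGFs, rose, and IL17RD (-1.20), another inhibitor of FGF signals, fell. ETV4 rose by 1.12, while FRS3 fell by 1.97. ETV5 fell by 1.19, and it also stands in the alveolar type II marker list.

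Markers of cell types moved with the members. In a piece of lung, fewer cells of a type and less RNA per cell cannot be told apart. All 6 neutrophil markers tested rose, and the summed list ranged from 179217 to 1651843 normalised reads in NaCl lungs and from 15338 to 117448 in healthy lungs, with CSF3R and MMP9 listed at 0. Of 7 fibroblast markers, 6 fell, with sums of 7035 to 26673 normalised reads in NaCl lungs and 25290 to 37744 in healthy lungs, and PDGFRA listed at 0. The 4 alveolar type I, 3 alveolar type II and 4 airway markers tested all fell. For type II cells the sums were 13325 to 98246 normalised reads in NaCl lungs and 109059 to 190628 in healthy lungs, with SFTPC and ABCA3 listed at 0. Of 6 endothelial markers, 4 fell and PECAM1 rose. Of 8 macrophage markers, 4 rose. None of 3 smooth muscle, 5 B and plasma cell and 1 T and NK cell markers passed by limma. The part of these shifts in the members' changes was not tested.

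Not all calls held when libraries with and without a title ending were fitted apart. These fits have fewer libraries, so a missed threshold does not by itself show that the change differed. Of the 40 called, 23 also passed in each kind of library on its own, 7 passed only in libraries with an ending (3 NaCl and 5 healthy), 5 only in those without (4 NaCl and 2 healthy), and 5 in neither, and none changed sign. Over all genes, 56.2% passed with an ending and 38.2% without. EDA had log2 fold changes of -3.05 with an ending and -3.38 without, FGF18 of -2.90 and -3.83, and FGF23 of 6.54 and 7.65. NOTCH4, NOTCH2, JAG1, TGFB3 and DKK3 missed the threshold with an ending only (log2 fold changes 0.09, 0.06, 0.41, -0.04 and -0.77). BMP4, DKK1, FGF9, INHBB, SMAD5, TGFBR1 and WNT4 missed it without one only (-0.59, 1.75, -1.08, -1.31, 0.53, 0.32 and -1.46). DLL4, FZD3, SMAD2, TGFBR2 and WNT8B missed it in both kinds.

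A fit added after the data were seen asked whether the change itself differed between the kinds of libraries. The difference passed in 9 of 63 members, where 9.69% of all genes did, and each of the 9 was higher with an ending (4.63% of all genes). SMAD7, which shuts down TGF-beta and BMP receptors, stood at 1.02 with an ending (adjusted p = 0.00485 by limma) and at -1.18 without one (adjusted p = 0.00605), a difference of 2.20 (SE 0.35, adjusted p = 0.00349). It had 3402, 1918 and 2550 normalised reads in NaCl replicates 5, 6 and 7, which have the ending, and 502 to 749 in the other 4 NaCl libraries, against 971 to 1903 in healthy lungs. Over all libraries SMAD7 showed no change past the threshold (-0.18, SE 0.39), and the values show that it lay on both sides of the healthy range. DKK3 stood at -0.77 with an ending and fell by 3.63 without one, and FZD7 rose by 2.48 with an ending and stood at -0.55 without one. The ending goes with other title letters in the NaCl group, and what it stands for cannot be told apart from the rabbits themselves. Both endings were pooled as 1 kind. With an ending, NaCl libraries were all PG and healthy ones 4 PD and 1 PG. Disease and the kind of ending thus cannot be told apart there.

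**Figure D3:**
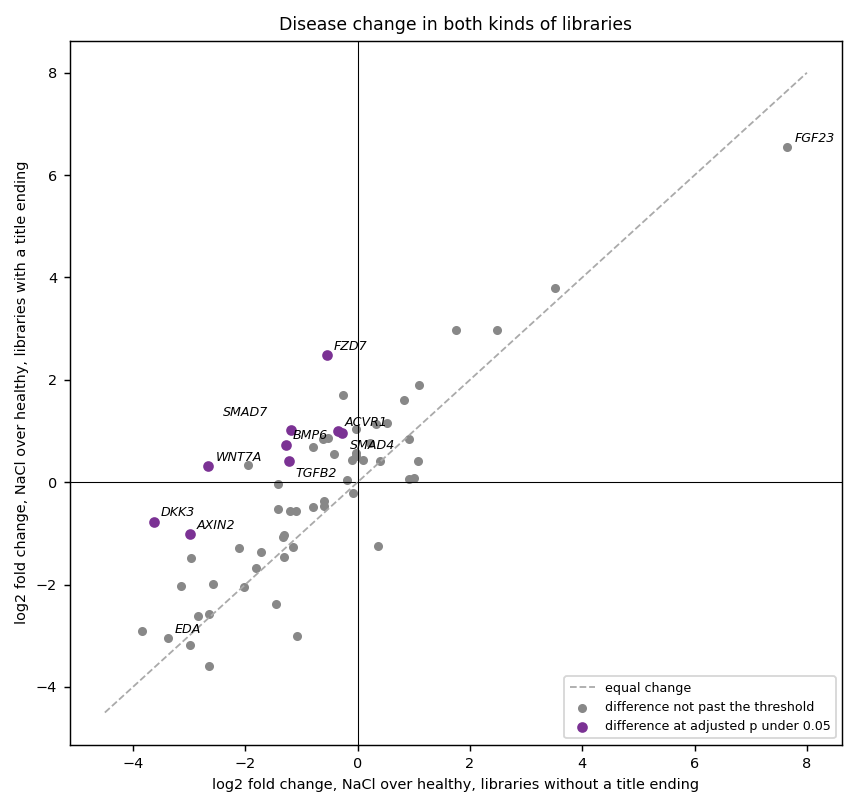
Log2 fold change of the 63 members in NaCl over healthy lungs in libraries with a title ending (y axis, 3 against 5 libraries) and without one (x axis, 4 against 2), purple where the difference passed an adjusted p of 0.05. SMAD7 lies at 1.02 with an ending and -1.18 without, and EDA and FGF23 lie near the dashed line of equal change.

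The treatment comparisons ask what each therapy did in infected, ventilated lungs. None of the members passed the threshold in any of them, and in none did the groups stand apart (0.265%, 0.385% and 0.302% of all genes stood apart for MSC, ceftaroline, and MSC on top of ceftaroline). For MSC against NaCl, 0 of 63 members passed by limma, where 0 of 9446 genes did, and 14 had an unadjusted p under 0.05 (17.7% of all genes did). With edgeR 0 members passed, where 0 of 9446 genes did, and with DESeq2 3 members passed (3.55% of all genes). For ceftaroline against NaCl, 0 of 63 passed by limma, where 0 of 9614 genes did, and 13 had an unadjusted p under 0.05 (18.3% of all genes). edgeR called 0 members, where it called 0 of 9614 genes, and DESeq2 called 5 members (5.4% of all genes). For ceftaroline plus MSC against ceftaroline, 0 of 65 passed by limma, where 4 of 9924 genes did (0.0403%). There, 6 members had an unadjusted p under 0.05 (11.5% of all genes), and both edgeR (0.111% of all genes) and DESeq2 (0.998%) called 0, as does the authors' deposited table (0.963% of its genes).

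In MSC-treated lungs the lowest p fell to FZD5, a Frizzled receptor, with 15.3, 21.2 and 37.3 normalised reads in MSC lungs and 23.7, 41.1 and 58.5 in NaCl lungs. The ranges overlapped, and all MSC libraries lay below the NaCl mean, with a log2 estimate of -0.87 (SE 0.25, adjusted p = 0.159 by limma). GREM1 had 25.2, 45.9 and 112 normalised reads in MSC lungs, against 17.7, 22 and 30 in NaCl lungs, and a log2 estimate of 1.04 (SE 0.34, adjusted p = 0.183 by limma). BMP4, a BMP ligand of the lung mesenchyme and epithelium, stood at 0.37 (SE 0.12, adjusted p = 0.183 by limma). FZD5 and GREM1 are listed past 0.05 in the authors' deposited table, which also lists DKK1 (-2.06, adjusted p = 0.0443), among 3.33% of the genes with an adjusted p there.

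In ceftaroline-treated lungs the lowest p fell to SMAD1, a SMAD of the BMP branch, with 274, 323 and 613 normalised reads in ceftaroline lungs and 168, 217 and 319 in NaCl lungs. Every ceftaroline library lay above the NaCl mean while the ranges overlapped, and the log2 fold change was 0.71 (SE 0.20, adjusted p = 0.136 by limma). DKK1 had 3.43, 17.6 and 72.2 normalised reads in ceftaroline lungs, 7.93, 19.8 and 86.5 in MSC lungs and 21.9, 119 and 380 in NaCl lungs. Its log2 fold change was -2.31 for ceftaroline (SE 0.69, adjusted p = 0.144 by limma) and -1.93 for MSC (SE 0.66, adjusted p = 0.194 by limma), and both values rest on the same NaCl libraries. INHBA had 13.6, 47.3 and 94.4 normalised reads in ceftaroline lungs, against 74.2, 103 and 351 in NaCl lungs, with a log2 estimate of -1.52 (SE 0.47, adjusted p = 0.156 by limma). The authors' deposited table lists 6 members past 0.05 for ceftaroline, namely SMAD1, DKK1, INHBA, BMP6, FZD7 and WNT1, where 4.69% of its genes are. BMP6, at -1.63 in the authors' deposited table, stood at -1.10 by limma over all libraries and at -0.05 against the 4 NaCl libraries without a title ending.

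**Figure D4:**
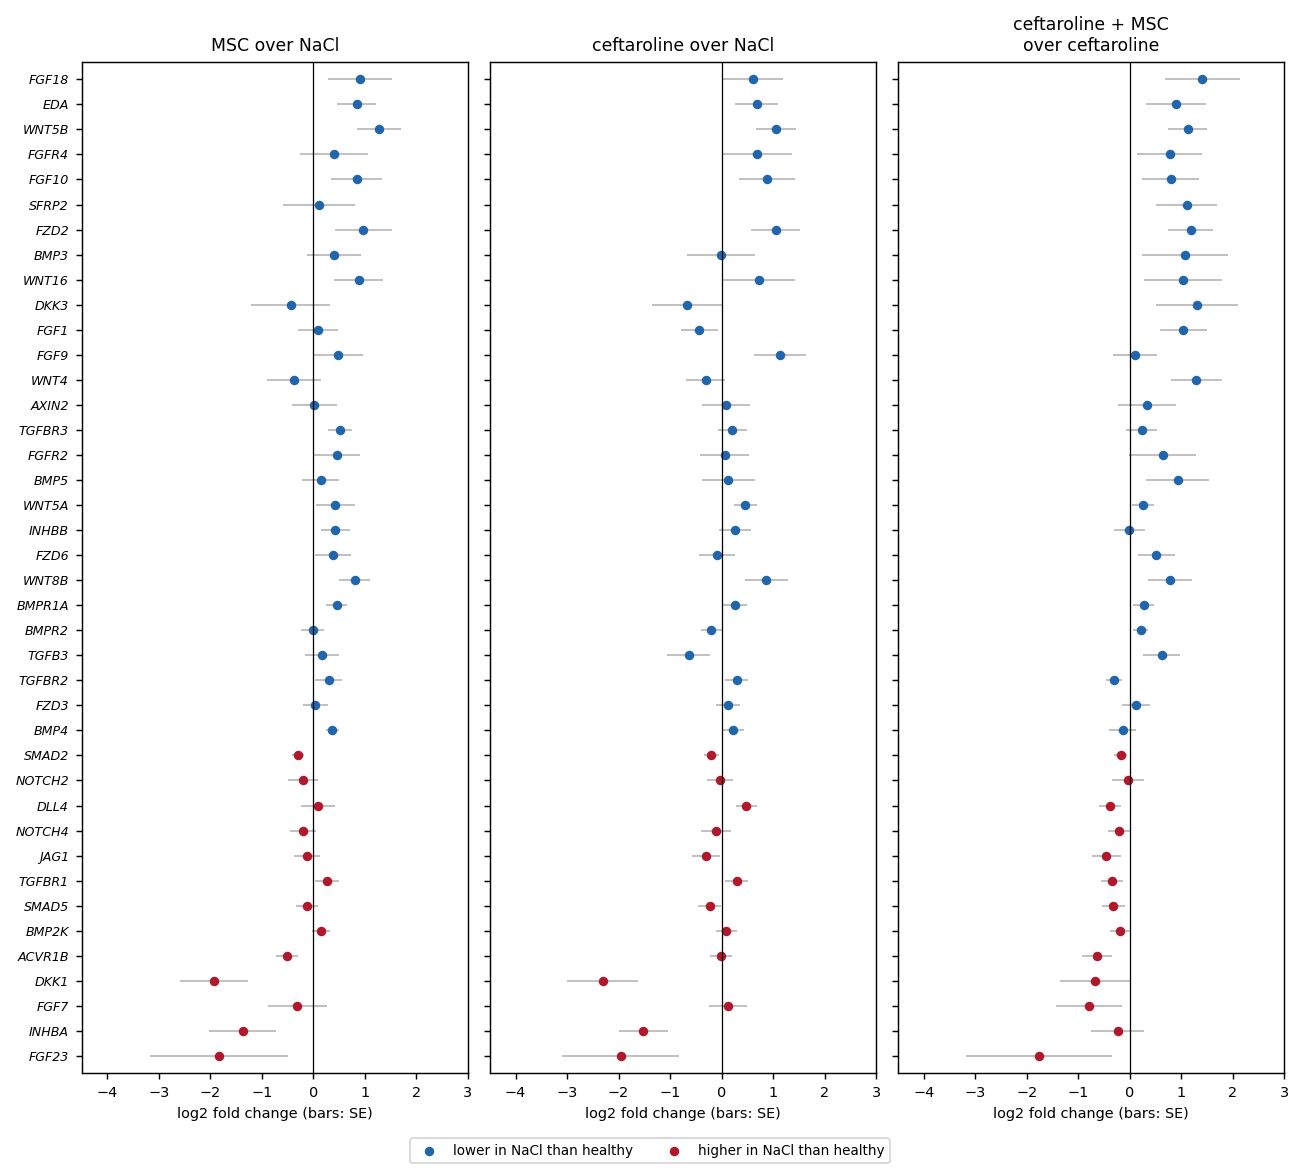
Log2 fold change (points, with bars of 1 SE) of the 40 members past the threshold in NaCl against healthy lungs, for MSC over NaCl, ceftaroline over NaCl, and ceftaroline plus MSC over ceftaroline, blue for those lower and red for those higher in NaCl than in healthy lungs. SFRP2 was not tested for ceftaroline, and none of the points passed the threshold.

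With MSC on top of ceftaroline, WNT5B had the lowest p, at 42.5, 86.7 and 224 normalised reads in ceftaroline plus MSC lungs and 29.2, 36.6 and 93.6 in ceftaroline lungs. The ranges overlapped, with 6 of 7 libraries of the combined treatment above the ceftaroline mean, and the log2 fold change was 1.12 (SE 0.37, adjusted p = 0.394 by limma). FZD2 had 66.9, 166 and 232 normalised reads in ceftaroline plus MSC lungs, against 19.3, 55.3 and 167 in ceftaroline lungs, with overlap (1.18, SE 0.43, adjusted p = 0.419 by limma). SMAD3, of the TGF-beta branch, stood at -0.61 (SE 0.24, adjusted p = 0.426 by limma). This comparison shares no library with that of NaCl and healthy lungs. Of the 27 members that fell with disease, 24 had a positive estimate here (88.9%, and 90.8% of all genes that fell), with a median of 0.77 against 0.34 over those genes. Of the 13 that rose with disease, all 13 had a negative estimate (100%, and 90.3% of all genes that rose), with a median of -0.35 against -0.27. Markers of several cell types moved with them. Estimates were positive for 7 of 7 fibroblast (median 0.85), 3 of 3 alveolar type II (1.09), 4 of 4 alveolar type I (0.44), 4 of 4 airway (0.39) and 3 of 3 smooth muscle markers (0.91), and for 4 of 6 endothelial markers (0.12). They were negative for 6 of 6 neutrophil (median -1.89), 5 of 8 macrophage (-0.19), 5 of 5 B and plasma cell (-0.50) and 1 of 1 T and NK cell markers (-0.40). No marker passed the threshold by limma, and their part in the members' estimates was not tested. None of these 40 members passed the threshold on its own by limma.

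The effect of MSC did not differ past the threshold between rabbits with and without ceftaroline in any of 63 members by limma (1 of 9417 genes did, 0.0106%), and 4 had an unadjusted p under 0.05 (5.38% of all genes). edgeR called 0 members as well, and its share of all genes is not given here. FZD5 had the lowest p of these, with a difference of 0.99 (SE 0.34, adjusted p = 0.637 by limma).

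EDA in the treated groups spread widely. It had 16.8, 38.1 and 120 normalised reads in ceftaroline plus MSC lungs, 9.05, 18.3 and 69.3 in ceftaroline lungs and 16.8, 18.8 and 111 in MSC lungs, against 10, 15.3 and 20.5 in NaCl lungs. No treated library reached the lowest healthy one, and the ranges of the treated groups overlapped with each other and with NaCl. The log2 fold change was 0.89 for ceftaroline plus MSC over ceftaroline (SE 0.58, adjusted p = 0.489), 0.68 for ceftaroline over NaCl (SE 0.42, adjusted p = 0.401) and 0.84 for MSC over NaCl (SE 0.38, adjusted p = 0.274), all by limma. The order of the group medians was healthy, ceftaroline plus MSC, MSC, ceftaroline and NaCl, and only the healthy group stood clear of its neighbour.

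A few libraries carried the spread within the treated groups. EDA was 112, 120 and 105 normalised reads in ceftaroline plus MSC replicates 3, 5 and 6, and 16.8 to 38.1 in the other 4 of that group. FGF18 in those 3 libraries was 314, 402 and 303 normalised reads, which is within or above the healthy range, and FGF23 was 7.7, 35.4 and 67.8. In MSC replicate 6, EDA was 111, FGF18 495 and FGF23 2.83 normalised reads, and in ceftaroline replicate 7 they were 69.3, 221 and 11.1. The same libraries had low neutrophil sums, of 35562, 17155 and 26391 normalised reads in ceftaroline plus MSC replicates 3, 5 and 6, 33041 in MSC replicate 6 and 54202 in ceftaroline replicate 7. Their alveolar type II sums were 146422, 159165, 147856, 114917 and 120255 in the same order. What part the cell makeup of these pieces had in the levels of EDA, FGF18 and FGF23 was not tested.

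**Figure D5:**
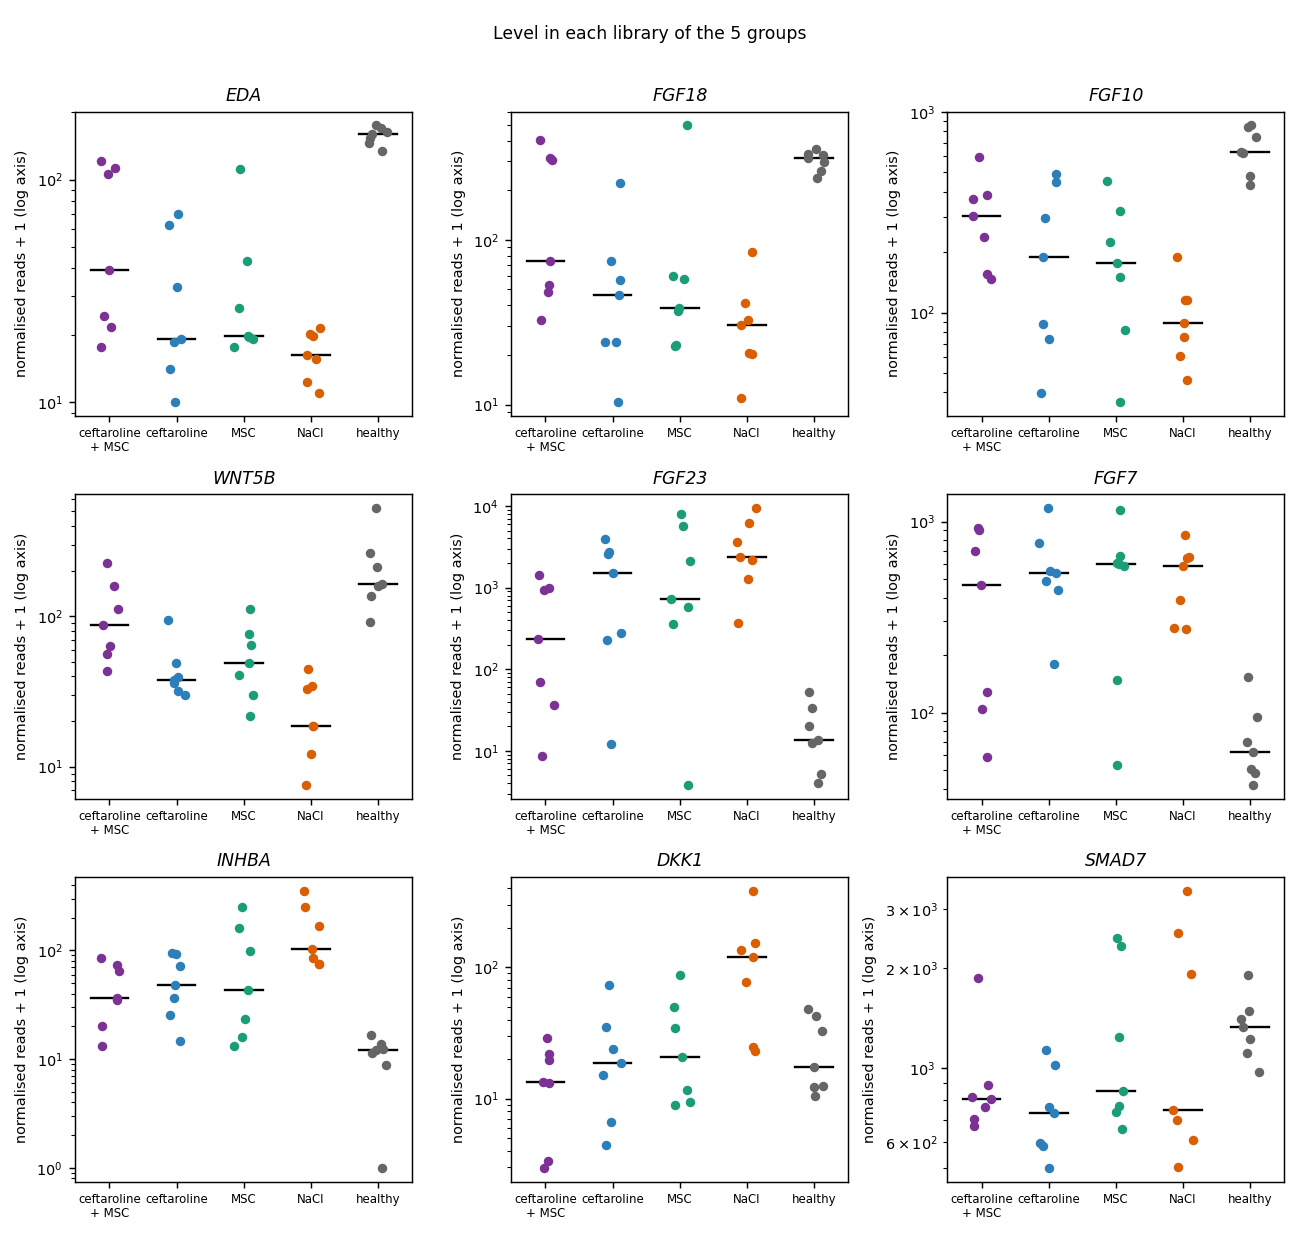
Level of 9 members in each library (points, normalised reads + 1 on a log axis) in the ceftaroline plus MSC, ceftaroline, MSC, NaCl and healthy groups, with a black line at each median. Single treated libraries of EDA and FGF18 lie near the healthy group, and SMAD7 in NaCl falls into values of 502 to 749 and of 1918 to 3402.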

How the data were processed

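Lung messenger RNA of 35 rabbits was read from 1 end over 75 bp from stranded libraries on a NextSeq500, per the labels' protocols, which also name bcl2fastq2 2.18.12 and Cutadapt 1.15. TopHat2 2.1.1, featureCounts 1.5.2 and DESeq2 1.24.0 are named in the submitters' processing notes, without their roles. Genome build, annotation and strand setting were not given in the sources used here, so reads of overlapping antisense genes may be included. The authors deposited 4 tables of 14 libraries each. Per the file headers these hold the log2 fold change and standard error, a Wald statistic (a score), a p-value and adjusted p-value per gene, and the normalised signal, reads over size factors. Whole reads were recovered from the deposited signal by dividing each column by its lowest nonzero value, within a tolerance of 1e-06.

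Each table was tested with limma 3.58.1 in R 4.3.3 on log2(deposited value + 1) with an intensity trend, for genes at 10 or more in at least 7 of 14 libraries. Alternatives were a pseudocount of 5, no filter, edgeR 4.0.16 and DESeq2 1.42.0 on recovered reads, each library left out, the title ending as a covariate or as a split, the library marked S00 left out, and the number in the title as a block. Fits with the ending as an interaction, or on libraries with an ending alone, were added after seeing the data. The tests were tried on simulated data. The difference between MSC effects was tested as the difference of both limma estimates over their joint standard error. Levels use median-of-ratios size factors over all libraries.

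Groups come from the labels, and replicates are numbered in accession order. The members and lists were chosen with earlier results of these data known. Named members are the 8 largest rises and falls among those called with a mean of at least 50, the 3 with the lowest p where fewer than 5 were called, that of lowest p in each role, and EDA. Further members are given as values, and were named after these were seen. Some values are not reported here.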

Additional observations from a re-analysis of the deposited data

Results flagged for a closer look

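In groups of 7, single libraries stood far from the rest in 7 cases among 140 groups of named members examined (28 members in 5 groups), where chance alone would flag about 1 in 20 groups. The 7 cases are thus about as many as that rate gives. MSC replicate 6, whose title carries the ending PG, gave 3 of them. FGF18 was 495 normalised reads there, with 21.6 to 59.1 in the other MSC libraries. FGF23 was 2.83, with 358 to 7973 in the others, and BMPR2 was 768, with 332 to 447 in the others. WNT5B was 93.6 in ceftaroline replicate 4, with 29.2 to 48.1 in the others. BMP4 was 512 in ceftaroline plus MSC replicate 2, with 1086 to 1528 in the others. INHBA was 0 in healthy replicate 6, with 7.85 to 15.5 in the others, and SFRP2 was 0 in NaCl replicate 3, with 8.07 to 28 in the others.

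The change of 9 members in NaCl over healthy lungs differed between libraries with and without a title ending, by limma with an adjusted p over 9545 genes. The difference (with an ending minus without, log2) was 3.03 for FZD7, 2.97 for WNT7A, 2.86 for DKK3, 2.20 for SMAD7, 2.01 for BMP6, 1.97 for AXIN2, 1.65 for TGFB2, 1.35 for ACVR1 and 1.24 for SMAD4. AXIN2 and DKK3 had negative estimates in both kinds of libraries, and the other 7 had a positive estimate with an ending and a negative one without.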

How the results depend on the processing

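In NaCl against healthy lungs, 40 members passed, where 60.6% of all genes did. The alternatives gave 33 (only libraries without a title ending, where 38.2% of all genes passed) to 47 (no filter). When 1 library was left out, 37 to 41 passed. The share of all genes is not given here for the fits without a filter or with 1 library left out. These counts therefore do not set the members apart from other genes. In the fits that left out 1 library, 34 of the 40 kept their call throughout. DLL4, FZD3, NOTCH2, SMAD2, TGFB3 and WNT8B lost it at least once, in the fits named with each gene above. More calls were lost when the libraries were split by title ending, as given above. The authors' deposited table lists 50 of 72 members past 0.05, 18 higher and 32 lower, and 6570 of 12307 genes. Among tested members it lists BMP2, FZD7 and SMAD3 as higher and GREM1 as lower, which limma did not call. It does not list TGFB3 past 0.05, which limma called. For MSC against NaCl, ceftaroline against NaCl, and ceftaroline plus MSC against ceftaroline, the count was 0 in every fit that left out 1 library (0 to 0). DESeq2 called 3 members for MSC and 5 for ceftaroline, and the cause was not tested. Numbers in the titles were not taken to pair the samples. Correlations of deviations between libraries of the same number ran from -0.38 to 0.48. They were not set against unmatched libraries, so they cannot settle whether the numbers pair the samples. With the replicate block 0 members passed in each treatment comparison. Of 772 repeats of single named results, 757 kept direction and call, 10 passed where they had not, 5 no longer passed and 0 reversed. Another scaling, by edgeR or DESeq2 on recovered reads, moved the median of all genes by at most 0.03 (log2). The sign of the estimate differed from limma in 4 members for NaCl against healthy lungs and in 6 for MSC against NaCl. It differed in 7 (edgeR) or 8 (DESeq2) members for ceftaroline against NaCl, and in 4 for ceftaroline plus MSC against ceftaroline. The share of all genes is not given here. Members such as WNT1, WNT6, WNT10A, SFRP4, SFRP5 and FGF12 were too low to test in any comparison. The part of sequencing depth in this was not tested. Without animal or culture records beyond the labels, p-values set the difference between groups against the spread between these rabbits' libraries.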

Other observations

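WNT1, a Wnt ligand too low to be tested, had recovered reads in NaCl lungs of 0, 18, 8, 13, 7, 8 and 10 and in healthy lungs of 1, 2, 1, 0, 2, 0 and 1, and the authors' deposited table lists it at a log2 fold change of 3.72. WNT6 had 0, 2.19 and 4.71 normalised reads in NaCl lungs (lowest, median, highest), against 4.13, 9.53 and 16.6 in healthy lungs. These levels are near the reach of the sequencing and are given without a test.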
